A study of Mus musculus with 18 samples.

Results

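Lanosterol synthase (Lss) and 7 other enzymes of cholesterol synthesis, Hmgcs1, Idi1, Fdps, Fdft1, Sqle, Cyp51 and Dhcr7, were followed by their Ensembl gene identifiers, 8 of the 39017 identifiers in the deposited gene counts. Lss was chosen because its difference between Ptbp1 overexpression and control libraries had passed the test across all genes, and the other 7 because they are enzymes of the same pathway. The values of the 8 genes in the overexpression experiment are therefore given as a description with no test, and tests are given for the silencing experiment. The data are read counts from entorhinal cortex layer II neurons of the mouse, whose RNA was isolated by TRAP, a pull-down of tagged ribosomes together with the mRNA that they carry. Ptbp1 makes an RNA-binding protein, polypyrimidine tract binding protein 1, which represses many exons.

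In the silencing experiment, an mCherry vector carried an shRNA against Ptbp1 in 4 mice and a scrambled shRNA in 5 mice. In the overexpression (OE) experiment, 5 mice had received a vector with Ptbp1 and mCherry, and 4 mice a control vector with mCherry. Each library came from 1 mouse with both entorhinal cortices pooled, and the authors left out 1 mouse with the Ptbp1 shRNA and 1 with the control vector, in which mCherry reads were lacking. The region is the entorhinal cortex by the title and design of the study, but hippocampus by the tissue labels of all 18 libraries. Not given in the sources used here are strain, sex and age of the mice, the line that tags the ribosomes and the promoters of the vectors.

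Cells make cholesterol from acetyl-CoA through mevalonate, which is turned into isoprenoid units, joined to squalene, closed into the ring of lanosterol and trimmed to cholesterol. The genes of the pathway are known to be driven together by SREBP2 (gene Srebf2), a transcription factor released from the endoplasmic reticulum when sterols are low, which binds promoters together with NF-Y, a factor of CCAAT boxes. The adult brain makes its own cholesterol, mostly in glia, since that of the blood does not cross into it, and neurons also take up cholesterol that astrocytes release.

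The promoters of 4 of the genes are shown because SREBP2 and NF-Y are the textbook regulators of the pathway: Lss, and the 3 genes with an unadjusted p under 0.05 in the silencing experiment. Of the 8 genes, 5 matched RefSeq promoters of build GRCm38.p6, windows of 300 bases from 250 before to 50 after the start. Capitals mark the sterol regulatory element core TCACNCCAC or the NF-Y motif ATTGG, searched on both strands, so that ATTGG also stands as CCAAT. The windows lie at chr10:76531355-76531654 on the plus strand for Lss, at chr13:119690101-119690400 on the plus strand for Hmgcs1, at chr13:8885356-8885655 on the plus strand for Idi1 and at chr5:4104648-4104947 on the minus strand for Cyp51.
Lss: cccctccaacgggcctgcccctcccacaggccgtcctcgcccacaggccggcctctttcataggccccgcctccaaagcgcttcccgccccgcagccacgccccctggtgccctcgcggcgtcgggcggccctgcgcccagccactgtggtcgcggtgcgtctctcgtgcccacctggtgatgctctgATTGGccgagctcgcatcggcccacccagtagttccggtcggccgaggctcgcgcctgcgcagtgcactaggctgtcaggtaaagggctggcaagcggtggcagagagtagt
Hmgcs1: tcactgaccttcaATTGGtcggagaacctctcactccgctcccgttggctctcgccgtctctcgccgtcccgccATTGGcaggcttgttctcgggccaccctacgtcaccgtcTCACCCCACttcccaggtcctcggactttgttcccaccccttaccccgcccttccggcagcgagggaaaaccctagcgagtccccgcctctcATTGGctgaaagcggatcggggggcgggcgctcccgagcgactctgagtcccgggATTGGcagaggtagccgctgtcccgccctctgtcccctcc
Idi1: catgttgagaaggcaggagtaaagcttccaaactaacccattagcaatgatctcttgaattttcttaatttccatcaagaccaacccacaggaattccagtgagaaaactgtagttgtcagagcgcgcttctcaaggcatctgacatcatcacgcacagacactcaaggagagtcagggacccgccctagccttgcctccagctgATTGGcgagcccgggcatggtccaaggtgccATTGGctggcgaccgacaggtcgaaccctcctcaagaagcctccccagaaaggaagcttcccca
Cyp51: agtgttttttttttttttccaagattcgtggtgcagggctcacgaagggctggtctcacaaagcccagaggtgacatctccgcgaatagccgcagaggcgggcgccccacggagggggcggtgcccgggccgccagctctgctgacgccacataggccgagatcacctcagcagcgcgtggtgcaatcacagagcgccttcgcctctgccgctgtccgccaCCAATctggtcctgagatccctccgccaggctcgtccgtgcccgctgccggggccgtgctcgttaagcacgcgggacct

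The window of Hmgcs1 held 1 match to TCACNCCAC and those of Lss, Idi1 and Cyp51 held none. Of all 32851 windows, 1.24% held that motif. ATTGG was found 4 times in the window of Hmgcs1, 2 times in that of Idi1 and 1 time each in those of Lss and Cyp51, and at least once in 37.4% of all windows. The 5 matched genes, Dhcr7 included, had 7 windows, of which 5 held ATTGG and 1 held TCACNCCAC. Of 62 windows of genes in the 5 other lists described below, 32 held ATTGG and 0 held TCACNCCAC. No match to one motif overlapped a match to the other. A match is a description of the letters and not a measured site.

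Library size, coverage and the spread between libraries differed between the 2 experiments. Gene counts per library were 34339355 to 46544178 in silencing and 18288627 to 39056655 in OE, with a common biological coefficient of variation of 90.1% and 22.3%. Exon bins are numbered stretches of a flattened annotation, and 56285 of them averaged 50 counts or more. The share of these without a read was 1.24% to 8.30% across silencing libraries and 0.0213% to 0.0551% across OE libraries, and Ptbp1 shRNA replicate 2 (8.30%) and scrambled shRNA replicate 5 (7.61%) were the least evenly covered. Ptbp1 itself had 118 to 158 CPM in the Ptbp1 OE libraries against 9.96 to 17.2 CPM in the control OE libraries. Libraries labelled Ptbp1 shRNA had 0.101 to 13.1 CPM of it and those labelled scrambled shRNA 0.349 to 9.11 CPM, so no reduction was detectable and directions there belong to the labels. CPM are counts scaled to library size with TMM factors. Layer II markers (Reln, Calb1 and Cux2) were detected in all 4 groups, with summed levels of 212 to 541 CPM.

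Lss closes squalene epoxide into lanosterol, the first sterol of the pathway. It had the largest log2 fold change of the 8 genes in the OE experiment, the contrast on which it was chosen. The Ptbp1 OE libraries had 45.6, 42.5, 48.4, 45.7 and 39.9 CPM of Lss, against 23.6, 24.7, 20.4 and 25.7 CPM in the control OE libraries. All 5 Ptbp1 OE libraries were above all 4 control libraries, and the lowest of them was 1.55-fold above the highest control. The means were 44.4 ± 3.28 CPM in Ptbp1 OE and 23.6 ± 2.33 CPM in control OE (SD, n = 5 and 4), a log2 fold change of 0.91 (SE 0.11), or 1.88-fold. Over all genes tested, 0.0425% passed the adjusted p of 0.05, 4.78% had an unadjusted p under 0.05 and 1.13% had groups that did not overlap with Ptbp1 OE higher. Lss was chosen on this contrast, so nothing is read from its place among them or among the 8 enzymes. Summed levels of 8 astrocyte markers were 363 to 702 CPM in Ptbp1 OE and 496 to 752 CPM in control OE libraries, and of 8 oligodendrocyte markers 144 to 187 CPM in Ptbp1 OE and 140 to 156 CPM in control OE. Those of 5 excitatory neuron markers were 13663 to 17654 CPM in Ptbp1 OE and 16492 to 21155 CPM in control OE, with 1 of 5 above 0 in log2 fold change. Summed microglia markers were 6.63 to 11.2 CPM in Ptbp1 OE and 5.68 to 8.18 CPM in control OE libraries, and the 3 tested of 7 were all above 0, with a median log2 fold change of 0.77. Vessel markers summed to 4.68 to 14.2 CPM in Ptbp1 OE and 2.78 to 18.5 CPM in control OE, and interneuron markers to 186 to 342 CPM in Ptbp1 OE and 186 to 330 CPM in control OE. None of these markers passed the test. Their part in the level of Lss was not tested. In pull-down RNA like this, fewer cells of a type, less RNA per cell and less carry-over of their RNA cannot be told apart.

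**Figure D1:**
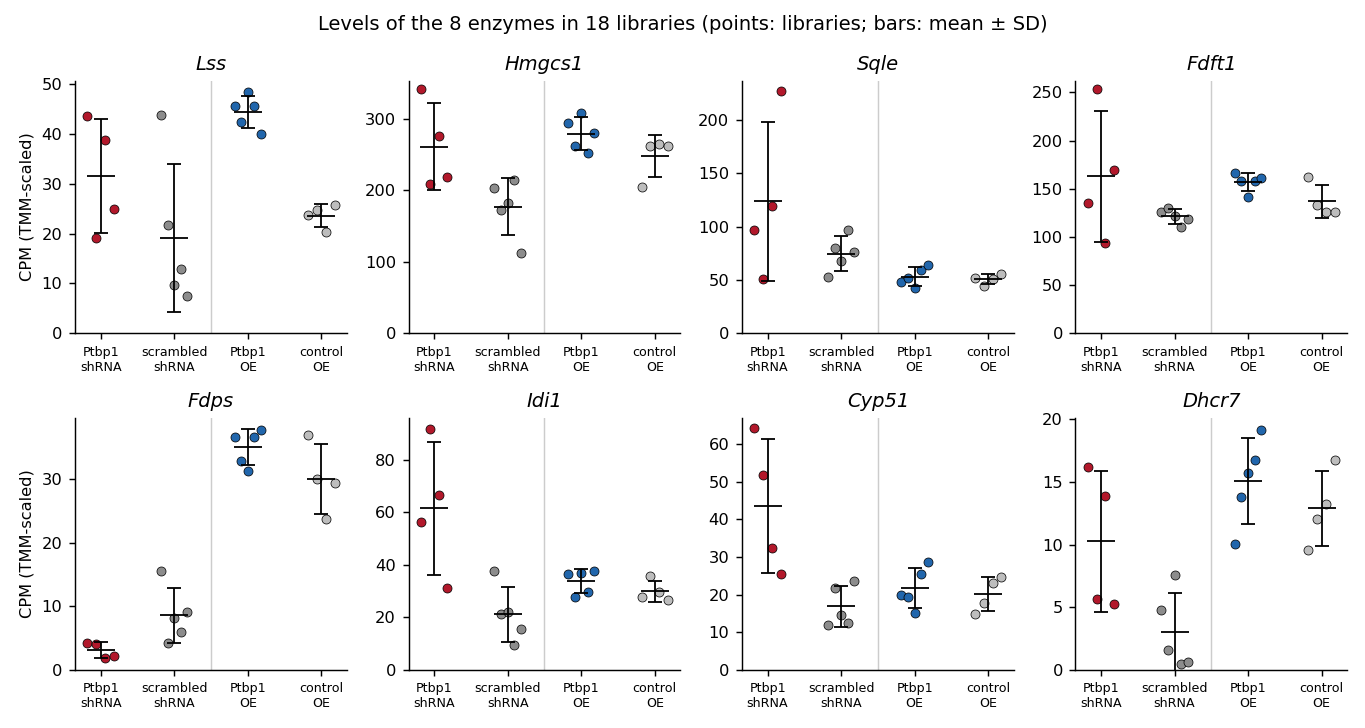
CPM (vertical axes, from 0, each gene on its own scale) of the 8 enzymes in the Ptbp1 shRNA, scrambled shRNA, Ptbp1 OE and control OE libraries. Points are libraries and bars the mean ± SD. For Lss the 5 Ptbp1 OE libraries lie at 39.9 to 48.4 CPM, above the 4 control OE libraries at 20.4 to 25.7 CPM, and for Cyp51 the 4 Ptbp1 shRNA libraries lie above the 5 scrambled ones.

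Lss varied widely within both groups of the silencing experiment. Lss stood at 43.6, 19.04, 38.7 and 24.998 CPM in Ptbp1 shRNA-labelled libraries, against 43.9, 21.7, 9.67, 12.8 and 7.52 CPM in those labelled scrambled shRNA. The groups overlapped, with scrambled replicate 1 slightly above the highest Ptbp1 shRNA library and scrambled replicate 2 above the lowest. The log2 fold change was 0.72 (SE 0.55, 95% interval -0.47 to 1.92, adjusted p 0.692 by edgeR's quasi-likelihood test). The interval includes a value of the size seen in the OE experiment as well as no difference. Without scrambled replicate 1 the log2 fold change was 1.29, and without scrambled replicate 5 it was 0.52.

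The reads of Lss were also counted along the transcript. Lss lies at chr10:76531588-76557138 (mm10) on the plus strand, and the 8 transcripts of GENCODE M21 flatten to the 39 bins of the deposited files. Of these, 25 bins with 2657 bases are coding, bin 37 (chr10:76553234-76555479) is the 3′ untranslated end, and bins 38 and 39 (chr10:76555480-76557138) lie downstream in transcripts annotated as not protein-coding. In the OE experiment 19 bins passed the filter on low counts, and all 19 had a higher level with Ptbp1 OE, with log2 fold changes of 0.65 to 1.30 and a median of 0.93. Because Lss was chosen on its gene counts in this contrast, nothing is read from the direction of its bins. The relative usage of a bin, its change against the other bins of Lss, lay between -0.17 and 0.28 on the log2 scale. The 3 bins that stood out most in usage were bin 26 with 1.97% ± 0.705 of Lss bin counts in Ptbp1 OE and 1.41% ± 0.548 in control OE libraries, bin 39 with 4.35% ± 2.05 in Ptbp1 OE and 3.51% ± 0.866 in control OE, and bin 17 with 2.37% ± 0.832 in Ptbp1 OE and 2.11% ± 0.891 in control OE (SD, n = 5 and 4). In each of these 3 bins the difference was smaller than the SD of the Ptbp1 OE group.

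**Figure D2:**
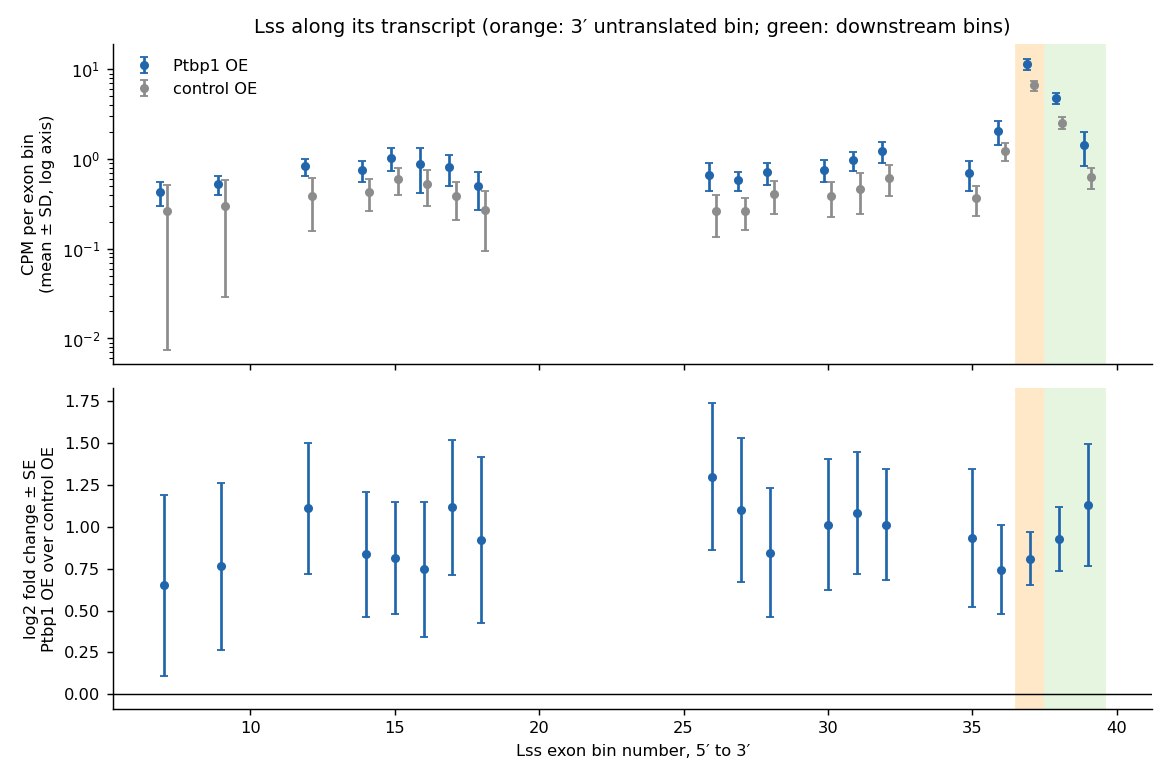
Upper panel, mean CPM ± SD (log axis) of the 19 Lss exon bins that passed the filter, in Ptbp1 OE and control OE libraries; lower panel, log2 fold change ± SE of Ptbp1 OE over control OE for the same bins, numbered from 5′ to 3′. All 19 values in the lower panel lie above 0, between 0.65 and 1.30, in the contrast on which Lss was chosen.

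The coding bins together had 16.1 ± 2.86 CPM in Ptbp1 OE and 8.24 ± 2.97 CPM in control OE libraries (SD, n = 5 and 4). The 3′ untranslated end had 11.5 ± 1.67 CPM in Ptbp1 OE and 6.65 ± 0.865 CPM in control OE libraries, and the downstream bins 6.20 ± 0.883 CPM in Ptbp1 OE and 3.19 ± 0.333 CPM in control OE libraries. Coding bins held 42.6% to 52.7% of Lss bin counts in Ptbp1 OE and 34.5% to 53.3% in control OE libraries, so the shares overlapped. The coding share in silencing was 0.683% to 35.4% in Ptbp1 shRNA and 1.68% to 38.1% in scrambled shRNA libraries, and 6 to 22 of the 25 coding bins were at 0 in the libraries of both groups. Most Lss bin counts there fell on the 3′ untranslated end and the downstream bins, and 4 Lss bins passed the filter. The bin counts of Lss amounted to 49.3% to 74.8% of its gene counts in silencing libraries and 67.6% to 86.4% in OE experiment libraries. The bin counts of Lss in the silencing experiment were thus mainly those of its last 3 bins.

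**Figure D3:**
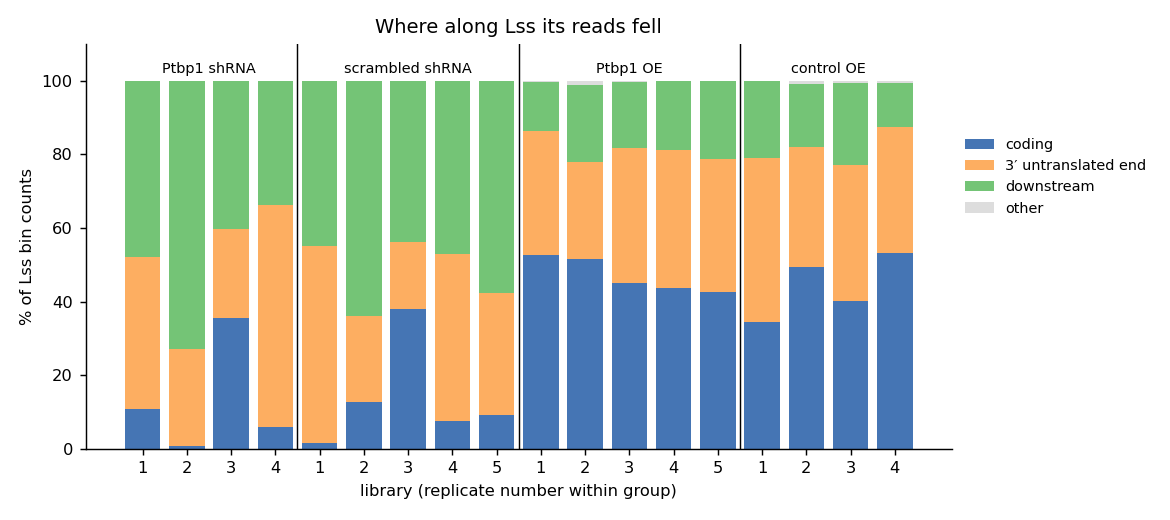
Share of Lss exon bin counts (percent, vertical axis) in coding bins, the 3′ untranslated end, the downstream bins and other bins, in each of the 18 libraries. Coding bins hold 34.5% to 53.3% in every OE experiment library and at most 38.1% in a silencing library.

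An antisense gene, 4930483K19Rik, shares exon sequence with Lss on the opposite strand, and the strand setting of the counting was not given in the sources used here. It had 3.48, 3.16, 2.66, 3.56 and 3.45 CPM in Ptbp1 OE and 1.31, 2.14, 1.78 and 1.88 CPM in control OE libraries (log2 fold change 0.87, SE 0.25). Its groups did not overlap, as for 1.13% of all genes in this direction. It did not pass, at an adjusted p of 0.678 by edgeR. The CPM of Lss was 11.4 to 18.2 times that of this gene in the libraries of the OE experiment. In the 36 Lss bins that share no base with its exons, the level was 21.2 ± 2.81 CPM in Ptbp1 OE and 11.0 ± 2.59 CPM in control OE libraries (SD, n = 5 and 4), a log2 difference of 0.93 (SE 0.18, pseudocount 0.5 CPM). For the whole gene the log2 fold change was 0.91 (SE 0.11), in the contrast on which Lss was chosen. The part of antisense reads in the level of Lss was not tested.

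The enzymes before squalene had log2 fold changes of 0.17 to 0.22 in the OE experiment. Hmgcs1, which makes HMG-CoA, had 294, 261, 308, 251 and 280 CPM in Ptbp1 OE and 204, 262, 264 and 261 CPM in control OE libraries. The log2 fold change was 0.17 (SE 0.10), and the groups overlapped, with control replicate 1 below all other libraries of the experiment. Idi1, the isomerase that interconverts the 2 isoprenoid units, had 36.3, 27.8, 36.9, 29.8 and 37.6 CPM in Ptbp1 OE and 27.9, 35.7, 29.7 and 26.5 CPM in control OE libraries (0.17, SE 0.13). Fdps, which joins these units to farnesyl diphosphate, the branch point to sterols, ubiquinone, dolichol and prenylated proteins, had 36.6, 32.9, 31.2, 36.7 and 37.7 CPM in Ptbp1 OE against 36.95, 30.0, 23.7 and 29.4 CPM in control OE (0.22, SE 0.13). For Idi1 and Fdps the ranges of the groups overlapped.

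The squalene and later enzymes other than Lss had log2 fold changes of 0.07 to 0.23. Fdft1, squalene synthase and the first enzyme committed to sterols, had 166, 158, 141, 158 and 161 CPM in Ptbp1 OE against 162, 133, 126 and 126 CPM in control OE libraries (log2 fold change 0.20, SE 0.09). Of its 4 control libraries, 3 were below every Ptbp1 OE library and replicate 1 lay among them. Sqle, the epoxidase that makes the substrate of Lss, had 47.8, 52.2, 42.5, 59.1 and 64.0 CPM in Ptbp1 OE against 52.0, 43.8, 51.0 and 55.3 CPM in control OE (0.07, SE 0.12). Cyp51, which removes a methyl group from lanosterol, the product of Lss, had 19.8, 19.3, 15.2, 25.4 and 28.6 CPM in Ptbp1 OE against 14.9, 17.8, 23.0 and 24.7 CPM in control OE (0.11, SE 0.19). The groups thus overlapped for both neighbours of Lss in the pathway. Dhcr7, a reductase of the final steps, had 10.04, 13.8, 15.7, 16.7 and 19.2 CPM in Ptbp1 OE against 9.53, 12.04, 13.2 and 16.8 CPM in control OE (0.23, SE 0.20).

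All 8 enzymes had a log2 fold change above 0 in the OE experiment, with a median of 0.18, while 50.0% of all genes tested did. The genes were selected with this contrast known, so nothing is read from the count. Without 1 library at a time, Lss stayed between 0.84 and 0.95, while Cyp51 lay between -0.01 and 0.23 and Sqle between -0.003 and 0.14.

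**Figure D4:**
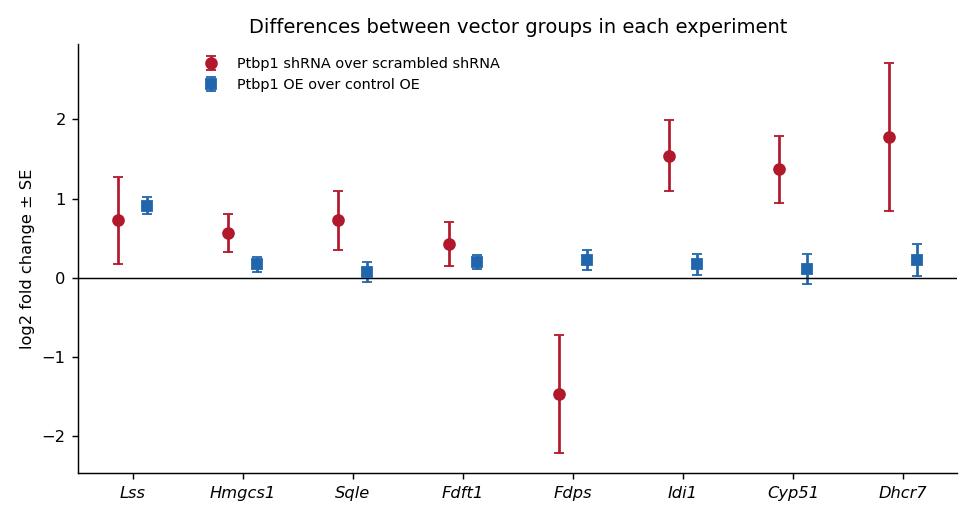
Log2 fold change ± SE of the 8 enzymes, Ptbp1 shRNA over scrambled shRNA (circles) and Ptbp1 OE over control OE (squares). In the OE experiment Lss is at 0.91 and the other 7 genes between 0.07 and 0.23, and in the silencing experiment 7 genes are above 0 and Fdps is at -1.47.

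In the silencing experiment none of the 8 enzymes passed edgeR's test, nor did any of the 14656 genes tested (0% called). At an unadjusted p under 0.05 there were 3 of the 8, Idi1, Cyp51 and Hmgcs1, all higher with the Ptbp1 shRNA label, beside 11.2% of all genes. DESeq2 called 703 genes there, Idi1 and Cyp51 among them, and limma voom 69 with none of the 8. The log2 fold change was above 0 for 7 of 8 enzymes, with a median of 0.73, beside 51.2% of all genes and a median of 0.03.

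Idi1 had 56.5, 92.0, 66.7 and 31.0 CPM in Ptbp1 shRNA-labelled libraries, against 37.6, 21.1, 21.9, 9.55 and 15.6 CPM in those labelled scrambled shRNA. Ptbp1 shRNA replicate 4 was below scrambled replicate 1, and the other 3 Ptbp1 shRNA libraries were above all 5 scrambled ones. The log2 fold change was 1.54 (SE 0.45, 95% interval 0.57 to 2.51), and the adjusted p was 0.219 by edgeR and 0.0231 by DESeq2. Exon bins of Idi1 amounted to 6.30% to 37.5% of its gene counts in the silencing libraries and 15.5% to 23.4% in the OE experiment libraries. In both experiments most of the gene counts of Idi1 were thus not seen along the transcript. Cyp51 had 64.4, 51.9, 32.5 and 25.5 CPM in Ptbp1 shRNA libraries, against 11.97, 21.8, 14.5, 12.4 and 23.6 CPM in scrambled shRNA libraries. Here the groups did not overlap, as for 2.39% of all genes in this direction. The log2 fold change of Cyp51 was 1.37 (SE 0.42, 95% interval 0.45 to 2.28), and the adjusted p was 0.239 by edgeR and 0.0153 by DESeq2.

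Hmgcs1 had 341, 208, 275 and 218 CPM in Ptbp1 shRNA libraries, against 203, 172, 182, 214 and 111 CPM in scrambled shRNA libraries. The log2 fold change was 0.56 (SE 0.24, 95% interval 0.04 to 1.09, adjusted p 0.416 by edgeR). The overlap came from Ptbp1 shRNA replicate 2, at 208 CPM, and scrambled replicate 4, at 214 CPM. Dhcr7 had 16.2, 5.69, 13.9 and 5.23 CPM in Ptbp1 shRNA libraries, against 4.73, 1.55, 7.60, 0.436 and 0.649 CPM in scrambled shRNA libraries (log2 fold change 1.77, SE 0.93, edgeR adjusted p 0.515). Sqle had 97.0, 50.4, 120 and 228 CPM in Ptbp1 shRNA libraries against 52.6, 79.8, 68.0, 96.8 and 76.3 CPM in scrambled shRNA libraries (0.73, SE 0.37, edgeR adjusted p 0.505). Its spread came mainly from Ptbp1 shRNA replicate 4, the highest, and replicate 2, the lowest of all 9 libraries. Without Ptbp1 shRNA replicate 4 the log2 fold change of Sqle was 0.25.

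Fdft1 had 135, 254, 93.8 and 169 CPM in Ptbp1 shRNA libraries, against 126, 130, 122, 110 and 118 CPM in scrambled shRNA libraries (log2 fold change 0.43, SE 0.28, edgeR adjusted p 0.626). The scrambled libraries lay close together and the Ptbp1 shRNA libraries on both sides of them. Without the least evenly covered libraries, Ptbp1 shRNA replicate 2 and scrambled replicate 5, its log2 fold change was 0.12, as it was without Ptbp1 shRNA replicate 2 alone. Fdps was the one enzyme with a value below 0, at 4.26, 4.10, 1.79 and 2.20 CPM in Ptbp1 shRNA libraries against 15.6, 4.20, 8.18, 5.89 and 9.08 CPM in scrambled shRNA libraries (-1.47, SE 0.75, edgeR adjusted p 0.494). Its level in the silencing experiment was below that in every library of the OE experiment, 23.7 to 37.7 CPM, though levels of the 2 experiments were scaled separately. Without both least evenly covered libraries the other log2 fold changes were 1.19 for Idi1, 1.43 for Cyp51, 0.53 for Hmgcs1, 1.73 for Dhcr7, 1.00 for Sqle, 0.69 for Lss and -1.62 for Fdps, and none passed.

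Summed markers of other cells had these ranges in the silencing groups. Summed astrocyte markers were 326 to 811 CPM in Ptbp1 shRNA and 636 to 1038 CPM in scrambled shRNA libraries, with 3 of 7 tested markers above 0 in log2 fold change. Summed oligodendrocyte markers were 64.4 to 121 CPM in Ptbp1 shRNA and 87.5 to 133 CPM in scrambled shRNA libraries, with Mag at 0 in every silencing library. Summed microglia markers were 0.056 to 3.69 CPM in Ptbp1 shRNA and 2.67 to 19.3 CPM in scrambled shRNA libraries, with C1qa at 0 in every silencing library and C1qb in every Ptbp1 shRNA library. Excitatory neuron markers summed to 31005 to 63310 CPM in Ptbp1 shRNA and 57235 to 71824 CPM in scrambled shRNA libraries, with 0 of 5 above 0. Vessel markers summed to 0.191 to 6.72 CPM in Ptbp1 shRNA and 0.095 to 0.589 CPM in scrambled shRNA libraries, with Cldn5 and Vtn at 0 in every silencing library, and interneuron markers to 179 to 357 CPM in Ptbp1 shRNA and 292 to 347 CPM in scrambled shRNA libraries. None of these markers passed edgeR's test, and their part in the levels of the enzymes was not tested.

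No exon bin of the 8 enzymes passed the test of relative usage. The silencing experiment tested 62 of their bins, with 0 called and 0 at an unadjusted p under 0.05. Of all 83164 bins there, 0.00120% were called and 1630 bins had an unadjusted p under 0.05. In the OE experiment 84 of their bins were tested, of which edgeR called 0 and 1 had an unadjusted p under 0.05. Of all 117580 bins there, 0.0340% were called and 1613 bins had an unadjusted p under 0.05. The 1 bin of the enzymes at that p was Hmgcs1 bin 9 (chr13:119705348-119705511, coding). It had 5.71% ± 0.728 of Hmgcs1 bin counts in Ptbp1 OE and 4.38% ± 0.858 in control OE libraries (SD, n = 5 and 4). Limma's diffSplice called 0 of these bins in both experiments.

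Levels of different genes were compared per kilobase of annotated exon. In the control OE libraries the order was Hmgcs1 with 54.0 CPM per kilobase, Fdft1 with 32.3, Sqle with 9.11, Idi1 with 8.55, Fdps with 7.13, Cyp51 with 4.55, Dhcr7 with 2.22 and Lss with 2.19. The ranges of Hmgcs1, Fdft1 and Sqle did not overlap, whereas Sqle, Idi1 and Fdps overlapped, as did Dhcr7 and Lss. In Ptbp1 OE libraries Lss had 4.12 ± 0.304 CPM per kilobase and Dhcr7 2.60 ± 0.589 (SD, n = 5), and their ranges did not overlap. Lss was thus 7th of 8 in Ptbp1 OE and 8th in control OE libraries, an order that depends on the length used. Per kilobase of bins with counts, Lss was below Dhcr7 in both groups, with 4.21 for Lss and 4.40 for Dhcr7 in Ptbp1 OE libraries and 2.24 for Lss and 3.75 for Dhcr7 in control OE libraries. Hmgcs1 and Fdft1 were also highest in silencing, with 56.8 and 38.5 CPM per kilobase in Ptbp1 shRNA and 38.4 and 28.7 in scrambled shRNA libraries, while the lowest were Fdps with 0.734 in Ptbp1 shRNA and Dhcr7 with 0.515 in scrambled shRNA libraries. Per kilobase of bins with counts, Fdps in control OE libraries was at 24.3 CPM, against 7.13 per kilobase of annotated exon.

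Several of the other enzymes also share sequence with a neighbour, which the counting could split. Exons of Hmgcs1, Fdft1, Idi1 and Cyp51 overlap those of Gm48342, Ctsb, Gm48574 and Akap9 on the opposite strand, and exons of Fdps overlap Gm43738 on the same strand. Ctsb had 136 ± 38.3 CPM in Ptbp1 OE and 147 ± 23.0 CPM in control OE libraries, and Akap9 97.5 ± 11.4 CPM in Ptbp1 OE and 98.3 ± 7.89 CPM in control OE (SD, n = 5 and 4). Among silencing libraries Ctsb had 107 ± 15.5 CPM in Ptbp1 shRNA and 77.8 ± 27.4 CPM in scrambled shRNA libraries, and Akap9 166 ± 71.7 CPM in Ptbp1 shRNA and 195 ± 94.9 CPM in scrambled shRNA (SD, n = 4 and 5). In the silencing experiment the log2 fold change was 0.46 (SE 0.29) for Ctsb, beside 0.43 (SE 0.28) for Fdft1. It was -0.23 (SE 0.36) for Akap9, beside 1.37 (SE 0.42) for Cyp51. The part of shared sequence in these levels was not tested.

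None of the other 14 mevalonate and sterol enzymes passed the test. In the OE experiment 9 of 14 were above 0, at a median of 0.08 on the log2 scale, and edgeR called 0. Hsd17b7, a reductase of the sterol C3 position, had 22.5 ± 0.370 CPM in Ptbp1 OE and 18.4 ± 1.18 CPM in control OE libraries (SD, n = 5 and 4; 0.29, SE 0.11). Its groups did not overlap, as for 1.13% of all genes in this direction, and it did not pass the test. Mvd, which makes isopentenyl diphosphate, had 32.3 ± 7.13 CPM in Ptbp1 OE and 25.4 ± 6.16 CPM in control OE (0.35, SE 0.19). Of the 14, 8 were above 0 in silencing, with a median of 0.22. Acat2, the thiolase of the first step, had 58.6 ± 17.9 CPM in Ptbp1 shRNA and 25.9 ± 9.60 CPM in scrambled shRNA libraries (SD, n = 4 and 5; 1.18, SE 0.38), and did not pass.

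Genes that control SREBP or sense sterols were near 0 at their median in both experiments, -0.08 in OE and 0.03 in silencing, with 7 and 9 of 15 above 0. Srebf2 itself had 70.5 ± 18.4 CPM in Ptbp1 OE and 66.1 ± 7.48 CPM in control OE libraries (log2 fold change 0.09, SE 0.16). Stard4, a carrier of cholesterol between membranes, had 55.9 ± 3.69 CPM in Ptbp1 OE and 45.3 ± 5.10 CPM in control OE (0.30, SE 0.10). The groups of Stard4 did not overlap, as for 1.13% of all genes in this direction. Rnf139, a sterol-sensing ubiquitin ligase, had 17.2 ± 2.46 CPM in Ptbp1 OE and 22.4 ± 3.27 CPM in control OE (-0.38, SE 0.14). Erlin2, a membrane protein of the endoplasmic reticulum, had in the silencing experiment 38.3 ± 19.4 CPM in Ptbp1 shRNA and 18.7 ± 4.99 CPM in scrambled shRNA libraries (1.04, SE 0.44). None of these passed edgeR's test.

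Of 17 genes of cholesterol uptake, export and turnover, 14 were tested in the OE experiment and 2 of them were above 0, with a median log2 fold change of -0.18, whereas 50.0% of all genes tested were above 0. Mylip, a ubiquitin ligase of cholesterol uptake, had 13.6 ± 1.41 CPM in Ptbp1 OE and 17.1 ± 2.37 CPM in control OE libraries (-0.34, SE 0.14). Cyp46a1, the neuronal hydroxylase that lets cholesterol leave the brain, had 74.3 ± 19.4 CPM in Ptbp1 OE and 89.2 ± 9.51 CPM in control OE (-0.26, SE 0.16), with overlapping groups for both genes. In the silencing experiment 13 were tested and 8 were above 0, with a median of 0.06. Abca1, the exporter of cholesterol to lipoproteins, had 0.784 to 33.7 CPM in Ptbp1 shRNA and 0.262 to 1.61 CPM in scrambled shRNA libraries (3.50, SE 1.02), and Abcg4, a neuronal sterol exporter, 8.64 ± 5.53 CPM in Ptbp1 shRNA and 19.7 ± 7.92 CPM in scrambled shRNA (-1.19, SE 0.59). The groups of both overlapped and neither passed.

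Isoprenoid branch genes and fatty acid synthesis genes gave no called gene either. Of 8 isoprenoid branch genes, 3 were above 0 in the OE experiment (median -0.03) and 5 in silencing (median 0.34). The smallest p belonged to Nus1, a subunit of the dolichol-making enzyme (-0.17, SE 0.10), and Pdss2, of ubiquinone side chain synthesis (-0.21, SE 0.14), in OE, and to Coq2, also of ubiquinone synthesis (-1.42, SE 0.55), and Fnta, a farnesyltransferase subunit (1.45, SE 0.72), in silencing. Of 10 fatty acid synthesis genes, 4 were above 0 in the OE experiment (median -0.01) and 6 in silencing (median 0.30). Scd1, a desaturase, had a log2 fold change of 0.41 (SE 0.19) in OE, and Acaca, which makes malonyl-CoA, of 1.06 (SE 0.44) in silencing. Acly, the source of cytosolic acetyl-CoA, was at 0.16 (SE 0.09) in OE and 0.59 (SE 0.33) in silencing. Over all 5 lists, edgeR called 0 of 61 genes tested in the OE experiment, where 6 had an unadjusted p under 0.05 beside 4.78% of all genes, and 0 of 60 in silencing, where 8 did beside 11.2% of all genes. DESeq2 called 0 in OE and 4 in silencing, where it called 703 genes in all, and limma voom 0 in both.

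**Figure D5:**
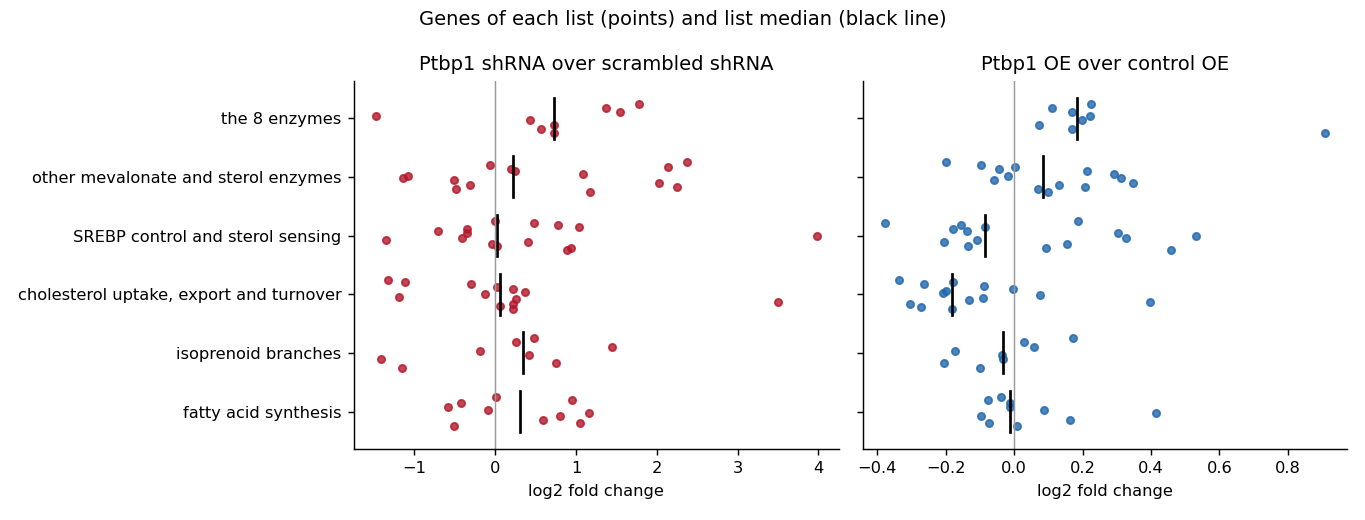
Log2 fold change (horizontal axes, with different ranges) of the tested genes of the 8 enzymes and of the 5 other lists, Ptbp1 shRNA over scrambled shRNA on the left and Ptbp1 OE over control OE on the right. Points are genes and black lines list medians, which for the 8 enzymes are 0.73 and 0.18. In the right panel Lss, at 0.91, is the point farthest from 0.

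The genes whose levels followed Lss most closely were found by the root mean square difference of centred log2 CPM over the 9 libraries of an experiment. Of 13218 genes compared in the OE experiment, Pdlim7, a PDZ and LIM domain protein, was closest at 0.12, with 46.3 ± 5.56 CPM in Ptbp1 OE and 23.9 ± 1.02 CPM in control OE libraries (SD, n = 5 and 4). Next came the myosin Myo1d at 0.16, Dzip1 and Pgbd1 at 0.20 each, and Bnip2 at 0.21. All 5 had groups that did not overlap, and none is an enzyme of sterol synthesis. The measure uses the contrast on which Lss was chosen, so it is a description only. In the silencing experiment, among 10771 genes, the closest were Gm26722 at 0.37, the stress granule protein G3bp1 at 0.42, the histone chaperone Nasp at 0.45, and Acly and Cdc42bpb at 0.47 each. The closest genes in silencing were farther from Lss than any of the 5 in the OE experiment, and no gene was among the 5 in both. The measure is not scaled to the spread between libraries, with a coefficient of variation of 90.1% in silencing and 22.3% in OE. Nothing is therefore read from the larger distances.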

How the data were processed

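TRAP RNA of 18 mice was sequenced, 1 library per mouse, and libraries were grouped by their treatment label. The deposited values are raw counts, per gene for each experiment and per exon bin for each library. Reads were handled with STAR 2.5.3a and HTSeq on mm10, per the submitters' processing notes, which state no role for either. Annotation release and strand setting were not given in the sources used here. Bins were placed by flattening GENCODE M21 transcripts, which matched the deposited bin numbers for 7 of the 8 genes and not for Cyp51.

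Fits were made per experiment in R 4.3.3 with edgeR 4.0.16 (filterByExpr, TMM, robust quasi-likelihood F test, Benjamini-Hochberg adjustment at 0.05, and diffSpliceDGE for bins). All 8 genes passed the filter on low counts in both experiments. Alternatives were RLE size factors, no filter, DESeq2 1.42.0, limma 3.58.1 voom, 1 spread over all 18 libraries, and leaving out libraries. Scripts were tested on simulated data. The labels give no batch, so batch and group cannot be told apart, and nothing says whether the mice were treated together, so p-values measure the spread between these libraries. No 2 libraries of a group held identical values.

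The genes, lists and marker genes were chosen with earlier results of these data known. All 8 enzymes are named. Of each other list, called genes are named or, with none, the 2 with the smallest p per experiment, and the 5 genes most like Lss in centred log2 CPM (prior count 2, mean log2 CPM of at least 1). Of bins, the 3 of Lss with the smallest p and the 1 of the other enzymes are named. Srebf2 was named for its role, and genes overlapping the enzymes for their position, after their values were seen. Some genes that the rule names are not reported here.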

Additional observations from a re-analysis of the deposited data

Results flagged for a closer look

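Of 32 sets of values, the 8 enzymes in each of 4 groups, 1 held a library far from the others of its group. Hmgcs1 had 204 CPM in control OE replicate 1, against 261 to 264 CPM in the other 3 control OE libraries. Its gap to the nearest of them was 0.956 of the range of the group, above Dixon's 95% critical value for 4 samples. Chance gives about 1 such set in 20.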

How the results depend on the processing

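Under the alternatives run, the log2 fold change of Lss in the OE experiment lay between 0.84 and 0.95. With 1 spread over all 18 libraries, 0 genes were called in OE, and so 0 of the 8 enzymes. DESeq2 called 39 genes in OE. Among the enzymes not called, Cyp51 and Sqle in OE lay on either side of 0. Leaving out 1 library at a time gave 6 to 9 called genes and 35 to 41 called exon bins in OE. In silencing, where edgeR called 0 genes, 11 were called with no filter on low counts, 703 by DESeq2, 69 by limma voom with quality weights and 1775 with 1 spread over all 18 libraries. Leaving out 1 library gave 0 to 5 genes, 5 of them when Ptbp1 shRNA replicate 4 was left out, 2 for scrambled shRNA replicate 5 and 1 for Ptbp1 shRNA replicate 2, and 0 to 3 exon bins. DESeq2 called 2 of the 8 enzymes and 4 genes of the other lists in silencing, among its 703 genes. The edgeR fit with 1 spread called 3 enzymes (Fdps, Idi1 and Cyp51, adjusted p 0.0238, 0.0102 and 0.0148) and 6 genes of the other lists, among its 1775 genes. That fit shares 1 spread between experiments whose own coefficients of variation were 90.1% (silencing) and 22.3% (OE), so its p-values do not measure the spread of silencing alone. Of exon bins in silencing, 8 were called with limma's diffSplice and 6 with a mean of at least 10 counts, beside 1 in the fit given, and none in the 8 enzymes. The causes were not tested. Omitting both least evenly covered libraries and using bins free of the antisense gene were chosen after seeing the data. No paired analysis was possible because the labels give no number that mice of the compared groups share. Coverage of Lss was uneven in silencing, where 6 to 22 of 25 coding bins were at 0, and its part in the result for Lss was not tested.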
